A study of Mus musculus with 6 samples.

Results

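The genes described here are the interleukin-6 (IL-6) family cytokines Il6, Lif, Osm and Il11, the receptor chains Il6ra, Il6st, Lifr and Osmr, the transcription factor Stat3 and its feedback inhibitor Socs3, read in the inguinal white fat of cold-exposed mice. They were chosen by name, as 10 genes of the pathway, with earlier results of these data known. Of these, 9 were among the 16627 genes of the count table and all 9 were among the 16366 genes that passed the filter on low counts; Il11 was not among them, and no level of it is given. The samples were 3 libraries from mice with a knockout of Celf1 confined to adipocytes by its label (Celf1 AKO) and 3 from floxed littermate controls (Flox control). Celf1 encodes a protein that binds RNA and regulates splicing and decay of mRNAs, and the series asked for its role in the beiging of this depot. Every mouse, controls included, had spent 6 hours at 4 °C, so no library shows the tissue at room temperature. The sources used here do not give the recombinase and its promoter, nor the age and sex of the mice.

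IL-6 family cytokines signal through receptor complexes that share the chain gp130, the product of Il6st. Il6ra gives IL-6 its specificity, Lifr serves leukaemia inhibitory factor (Lif), and Osmr serves oncostatin M (Osm). Ligand binding activates Janus kinases, which phosphorylate STAT3; STAT3 then drives transcription, including that of Socs3, whose protein binds gp130 and shuts the signal off. In fat, the cytokines come from adipocytes as well as from stromal and immune cells, and IL-6 is known as a signal released during adrenergic and cold stimulation.

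Promoter sequence is shown for Il6, Socs3 and Lif: Il6 and Socs3 because their levels were among the most different between libraries, and Lif because it lies beside Osm. Each window, from RefSeq on GRCm38.p6, runs 5′ to 3′ along the gene from 250 bases before to 50 bases after a start site. The Il6 window is chr5:30012864-30013163 on the plus strand, the Socs3 window chr11:117969317-117969616 on the minus strand and the Lif window chr11:4257318-4257617 on the plus strand. Capitals mark exact matches, on either strand, to the STAT motif TTCNNNGAA, the AP-1 motif TGANTCA, the cAMP response element TGACGTCA or the NF-kB motif (the letters matched in Il6, with any base in the place after GGGA).
Il6: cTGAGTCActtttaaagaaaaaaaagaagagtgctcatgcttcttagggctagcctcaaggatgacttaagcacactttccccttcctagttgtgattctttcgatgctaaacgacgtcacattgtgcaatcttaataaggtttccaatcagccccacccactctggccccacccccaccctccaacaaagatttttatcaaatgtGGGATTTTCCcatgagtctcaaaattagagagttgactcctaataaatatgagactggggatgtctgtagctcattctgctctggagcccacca
Socs3: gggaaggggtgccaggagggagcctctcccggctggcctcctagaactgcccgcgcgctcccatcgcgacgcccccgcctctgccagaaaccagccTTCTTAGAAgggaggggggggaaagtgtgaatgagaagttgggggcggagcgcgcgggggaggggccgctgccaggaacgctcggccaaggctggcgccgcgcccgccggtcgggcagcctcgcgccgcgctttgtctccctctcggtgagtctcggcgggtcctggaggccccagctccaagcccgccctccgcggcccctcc
Lif: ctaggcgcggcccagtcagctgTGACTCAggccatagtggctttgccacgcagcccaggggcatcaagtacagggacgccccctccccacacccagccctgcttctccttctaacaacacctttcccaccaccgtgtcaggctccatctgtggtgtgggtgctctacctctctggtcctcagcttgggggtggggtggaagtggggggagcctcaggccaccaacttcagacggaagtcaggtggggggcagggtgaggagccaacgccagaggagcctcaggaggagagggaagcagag
The Il6 window held the AP-1 letters TGAGTCA, whose first base lay 249 bases before the start site, and the NF-kB letters GGGATTTTCC, 44 bases before it. The Socs3 window held the STAT letters TTCTTAGAA 154 bases before its start site, which lies 681 bases downstream of the start of the GENCODE gene. The whole Socs3 window, with these letters, thus lies within the GENCODE gene and not upstream of it. The Lif window held the AP-1 letters TGACTCA 228 bases before the start site. Of all 32851 such windows, 8.3% held the STAT motif, 7.81% the AP-1 motif, 1.79% the cAMP response element and 0.411% the NF-kB motif. The table of windows held 9 windows for 8 of the genes whose levels are described, all but Osm. Of these, 3 held the AP-1 motif, 1 the STAT motif, 1 the NF-kB motif and 0 the cAMP response element. A match is a match of letters and no measure of binding.

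The libraries held 54835348 to 64979443 counts, so 1 CPM (counts scaled to library size and to the library's TMM factor) stood for 54.9 to 67.8 counts. Celf1 itself averaged 55.1 ± 6.97 CPM in the knockouts against 128 ± 15.3 CPM in the controls (SD, n = 3 each), with no overlap. Of all genes tested, 9.51% were lower without overlap. Its log2 fold change was -1.21, and it did not pass the edgeR test used below (adjusted p = 0.122). Celf1 passed by DESeq2 (adjusted p = 2.09e-09). By edgeR it passed with the replicate block (adjusted p = 0.0476) and without Celf1 AKO replicate 3 (adjusted p = 0.0174). Adipocyte markers led the marker lists in every library, with Adipoq, Plin1, Plin4 and 5 others summing to 32152 to 40521 CPM. Celf1 AKO replicate 3 stood apart from the other knockout libraries: its log2 CPM correlated across genes at 0.978 and 0.976 with them and at 0.983 to 0.986 with the controls. Replicates 1 and 2 of the knockout correlated at 0.988 with each other and at 0.969 to 0.985 with the controls. Each control correlated better with replicate 3 than with replicate 1 or 2. Which of the knockout libraries was unusual was not tested. Celf1 AKO replicate 3 also held 1040 CPM of skeletal muscle markers, nearly all Acta1, against 23.1 to 75.2 CPM in the other 5 libraries. Of the 5 muscle markers listed, 2 were in the count table, and Ckm, Myh4 and Tnnt3 were not. The sum is thus in effect the level of Acta1, and whether this library held muscle was not tested. Where leaving out this library changes a call or a list's median by much, the value without it is given.

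In the comparison of Celf1 AKO with Flox control, 0 of the 9 genes passed the test (edgeR quasi-likelihood, adjusted p under 0.05). In all, 2 of 16366 genes passed (0.0122%). DESeq2 called 1 of the 9, against 3.02% of all genes. Limma-voom called 0 of the 9 and 0 genes in all. By size, the cytokines Osm and Il6 had the largest log2 fold changes, 3.03 and 2.76, followed by Socs3 at 1.10 and Stat3 at 0.71, while the shared and private receptor chains lay between -0.53 for Lifr and 0.42 for Il6ra. Il6 and Stat3 did not overlap between the groups, both higher in Celf1 AKO; among all genes tested, 7.81% were higher and 9.51% lower without overlap, 17.3% in all. At an unadjusted p of 0.05 by edgeR, 6 of the 9 passed, 5 higher and 1 lower, against 12.9% of all genes, 6.75% higher. Of the 9, 8 had a positive log2 fold change, with a median of 0.42 against -0.02 over all genes tested. The genes were picked with results of these data known, so these counts describe them and test nothing about the family.

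**Figure D1:**
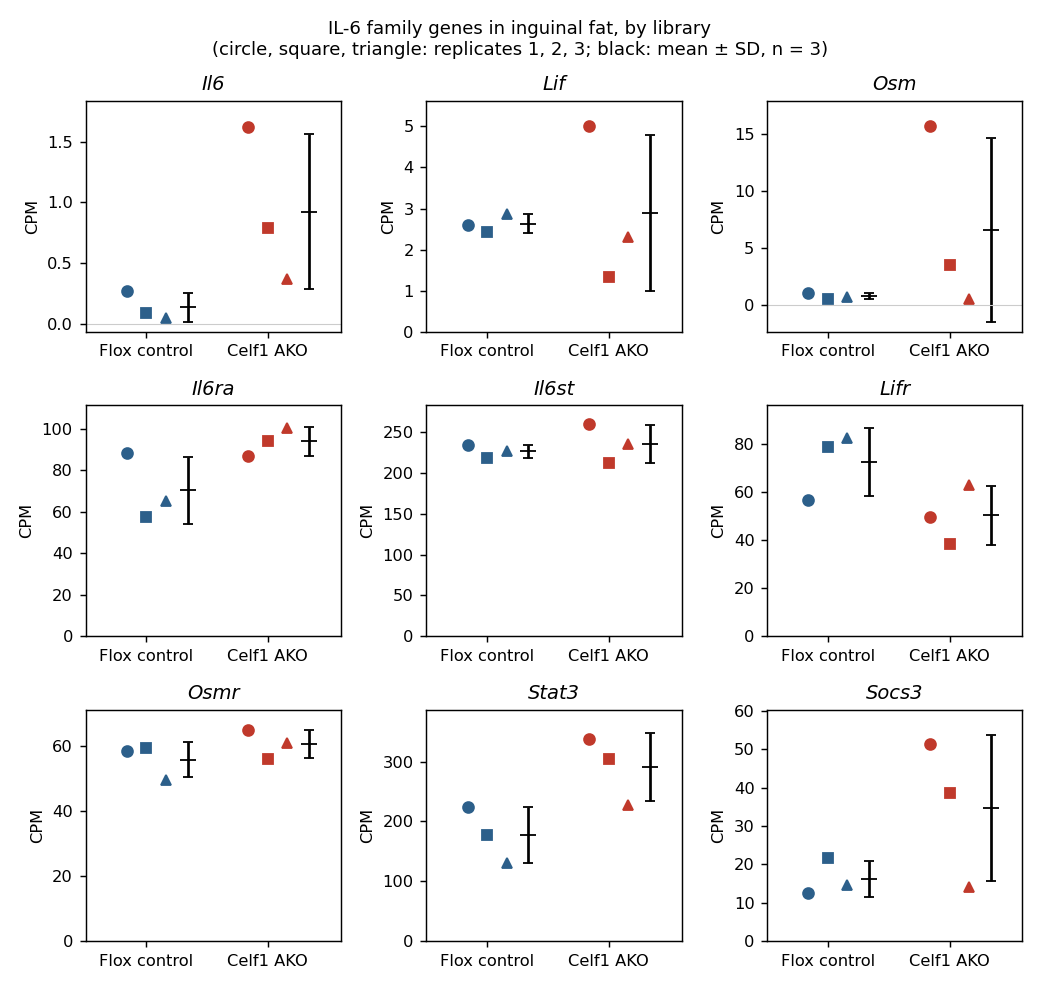
Level of each of the 9 measured genes in CPM (y axes, from 0 or below) in 3 Flox control (blue) and 3 Celf1 AKO (red) libraries; symbols give the replicate number and black bars the mean and SD. Il6 and Stat3 do not overlap between the groups, and Osm and Socs3 stand high in Celf1 AKO replicates 1 and 2 but not in replicate 3.

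Among the ligands, Il6 (ENSMUSG00000025746; GRCm38 chromosome 5, 30013114 to 30019981, plus strand), the family's founding cytokine, was close to the lower limit of what these libraries could count. Knockout replicates 1, 2 and 3 gave 89, 48 and 24 counts, and control replicates 1, 2 and 3 gave 16, 6 and 3 counts. These stood for 1.62, 0.786 and 0.369 CPM against 0.274, 0.0886 and 0.0459 CPM. Each knockout library lay above each control, but the lowest knockout library was close to the highest control: the exact 95% Poisson interval was 15.4 to 35.7 counts for the former and 9.15 to 26.0 for the latter. Summed over 3 libraries, the ratio of CPM was 6.81, with an exact 95% interval of 4.45 to 10.8 that covers counting error only and not the spread between libraries. Its log2 fold change of 2.76 (SE 0.77) had an edgeR adjusted p of 0.278; the exact permutation test gave p = 0.1, which is the smallest for 3 against 3. DESeq2 gave an adjusted p of 0.0251, and was the 1 alternative of those run under which Il6 passed; with 1 library left out the edgeR log2 fold change ran from 2.12 to 3.73. DESeq2 called 3.02% of all genes.

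Osm (ENSMUSG00000058755; chromosome 11, 4236420 to 4241026, plus strand) encodes oncostatin M, a cytokine made largely by myeloid cells. Knockout replicates 1, 2 and 3 held 15.7, 3.52 and 0.538 CPM, and control replicates 1, 2 and 3 held 1.10, 0.605 and 0.719 CPM. Replicate 1 of the knockout held most of the group's Osm, with 862 of 1112 counts, and replicate 3 lay below every control, so that the groups overlapped. The log2 fold change was 3.03 (SE 1.03; edgeR adjusted p = 0.317; exact permutation p = 0.4). With Celf1 AKO replicate 1 left out it was 1.36 (edgeR adjusted p = 0.629), and with replicate 3 left out it was 3.57 and passed (edgeR adjusted p = 0.0410).

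Myeloid markers were read beside Osm. The 9 neutrophil markers in the table summed to 70.0, 46.6 and 160 CPM in the knockouts, in the order of replicates, and to 26.0, 49.8 and 29.8 CPM in the controls. All 9 had a positive log2 fold change (median 2.32); 0 passed by edgeR, with 5 higher at an unadjusted p of 0.05 (6.75% of all genes) and 0 called by DESeq2. Without Celf1 AKO replicate 3, a setting added for the marker lists after seeing the data, all 9 stayed positive with a median of 0.89, 0 passed and 2 were higher at an unadjusted edgeR p of 0.05 (10.7% of all genes). Mmp9, which had the smallest log2 fold change of the 9 (0.37), was the largest term of the sum in every library but Celf1 AKO replicate 3, where S100a8 and S100a9 were at 36.1 and 39.4 CPM. Ngp and Ltf were at 0 counts in at least 1 control. The library highest in these markers, Celf1 AKO replicate 3, was the lowest of all 6 in Osm. The 10 macrophage markers, among them Adgre1, Cd68 and Csf1r, summed to 1683, 587 and 1109 CPM in the knockouts and to 1078, 1223 and 1483 CPM in the controls. Celf1 AKO replicate 2, the second highest in Osm, was the lowest in macrophage markers. Celf1 AKO replicate 1, the highest in Osm, was the highest in macrophage markers and the second highest in neutrophil markers. The part of either cell type in the Osm and Il6 values was not tested, and in bulk tissue more cells of a type and more RNA per cell cannot be told apart.

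Lif (ENSMUSG00000034394; chromosome 11, 4257557 to 4272514, plus strand), a cytokine of stem cell and stress biology, starts 16530 bases beyond the end of Osm. Its levels were 5.005, 1.34 and 2.31 CPM in knockout replicates 1, 2 and 3, and 2.59, 2.44 and 2.88 CPM in the controls. The knockouts thus spanned the controls, with replicate 1 above and replicates 2 and 3 below all of them. The log2 fold change was 0.13 (SE 0.45; edgeR adjusted p = 0.931), and -0.49 without Celf1 AKO replicate 1. Celf1 AKO replicate 1 was the highest of the 6 libraries for all 3 measured cytokines, Il6, Osm and Lif.

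Among the receptor chains, Il6st (ENSMUSG00000021756; chromosome 13, 112464070 to 112510086, plus strand), which encodes gp130, was the steadiest. It was at 259, 212 and 234 CPM in the knockouts and at 234, 217 and 227 CPM in the controls, a log2 fold change of 0.06 (SE 0.12; edgeR adjusted p = 0.874). Osmr (ENSMUSG00000022146; chromosome 15, 6813577 to 6874969, minus strand), the oncostatin M chain, was at 60.6 ± 4.45 against 55.8 ± 5.42 CPM (SD, n = 3 each), with a log2 fold change of 0.12 (SE 0.11; edgeR adjusted p = 0.689). For both, the groups overlapped and the difference was smaller than the larger of the SDs of the groups.

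Il6ra and Lifr differed more, in opposite directions. Il6ra (ENSMUSG00000027947; chromosome 3, 89864059 to 89913196, minus strand), the IL-6 binding chain, was at 86.9, 94.3 and 101 CPM in the knockouts and at 88.4, 57.4 and 65.3 CPM in the controls. Flox control replicate 1 lay above Celf1 AKO replicate 1, so the groups overlapped by that pair of libraries (log2 fold change 0.42, SE 0.17; edgeR adjusted p = 0.360). Lifr (ENSMUSG00000054263; chromosome 15, 7090614 to 7197489, plus strand) was at 49.7, 38.5 and 63.0 CPM in the knockouts and at 56.7, 78.7 and 82.7 CPM in the controls. Here Flox control replicate 1 was again the control nearest to the knockouts, below Celf1 AKO replicate 3 (log2 fold change -0.53, SE 0.21; edgeR adjusted p = 0.360). Lifr was the 1 gene of the 9 with a negative log2 fold change.

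Ratios of receptor chains within a library, from the FPKM values that the authors scaled to gene length, do not depend on how libraries are scaled to each other. The ratio of Il6ra to Lifr was 5.05, 7.07 and 4.61 in the knockouts, in the order of replicates, and 4.51, 2.11 and 2.28 in the controls. Its groups did not overlap, by the small margin between Celf1 AKO replicate 3 and Flox control replicate 1 (exact permutation p = 0.1; 0.24 adjusted over the 6 ratios of the 4 chains). The ratio of gp130 to Osmr was 2.45 ± 0.067 in the knockouts and 2.58 ± 0.29 in the controls (SD, n = 3 each), and the other 4 ratios overlapped between the groups as well. The exact permutation test gave p = 0.6 for gp130 to Osmr and p = 0.2 for each of those 4.

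Stat3 (ENSMUSG00000004040; chromosome 11, 100885098 to 100939540, minus strand), the transcription factor on which the pathway converges, was at 338, 305 and 228 CPM in the knockouts and at 224, 177 and 130 CPM in the controls. The groups did not overlap, but only narrowly: Celf1 AKO replicate 3 and Flox control replicate 1 were nearly level. The log2 fold change was 0.71 (SE 0.23; edgeR adjusted p = 0.301; exact permutation p = 0.1). With 1 library left out it ran from 0.53 (Flox control replicate 3) to 0.91 (Flox control replicate 1), and Stat3 passed under none of the 17 alternatives run. Of its 9527 exonic bases, 72 are shared with Stat5a on the opposite strand. The counting is not stated to use strand, so reads from these bases cannot be assigned.

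Socs3 (ENSMUSG00000053113; chromosome 11, 117966079 to 117970047, minus strand), the feedback inhibitor, was at 51.4, 38.6 and 14.0 CPM in the knockouts and at 12.4, 21.5 and 14.6 CPM in the controls. Celf1 AKO replicates 1 and 2 lay above all controls and replicate 3 among them. The log2 fold change was 1.10 (SE 0.44; edgeR adjusted p = 0.362; exact permutation p = 0.3). Without Celf1 AKO replicate 3 it was 1.47 and passed (edgeR adjusted p = 0.0367), in a fit that called 3.19% of all genes.

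**Figure D2:**
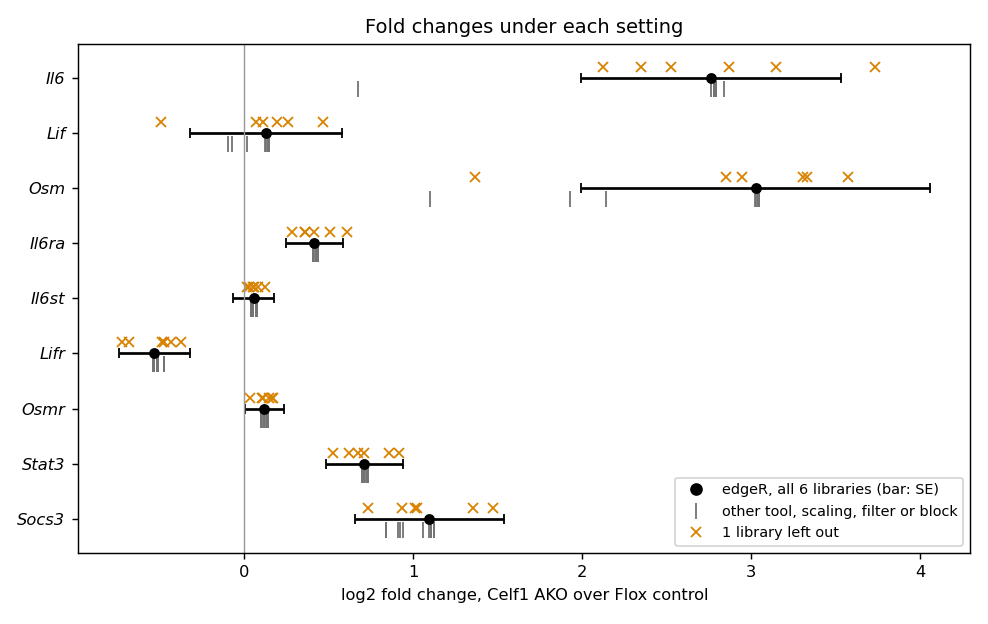
Log2 fold change of Celf1 AKO over Flox control (x axis) for the 9 genes; black points are edgeR on all 6 libraries with the SE, grey ticks other tools, scalings, filters or the replicate block, and orange crosses fits with 1 library left out. Il6 (0.67 to 3.73) and Osm (1.10 to 3.57) move most, Lif crosses 0, and Lifr keeps between -0.72 and -0.37.

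On the length-scaled FPKM scale, where levels of different genes can be set side by side, Stat3, Socs3 and the receptor chains lay above the cytokines in every library, except that Osm exceeded Lifr in Celf1 AKO replicate 1. In Flox control the order was Stat3 (29.2 ± 6.30 FPKM), Il6st (26.1 ± 0.88), Il6ra (20.9 ± 3.46), Osmr (10.2 ± 1.01), Lifr (7.61 ± 1.85), Socs3 (6.42 ± 2.17), Lif (0.656 ± 0.072), Osm (0.352 ± 0.090) and Il6 (0.121 ± 0.101) (SD, n = 3 each). Of the neighbours in that order, Stat3 and Il6st overlapped, as did Lifr and Socs3; the other pairs did not. In Celf1 AKO the order was Stat3 (47.6 ± 8.44 FPKM), Il6ra (28.0 ± 2.86), Il6st (27.0 ± 3.53), Socs3 (13.4 ± 7.27), Osmr (10.99 ± 1.20), Lifr (5.23 ± 1.51), Osm (2.87 ± 3.55), Il6 (0.842 ± 0.586) and Lif (0.718 ± 0.477). There the neighbours Il6ra and Il6st overlapped, as did Socs3 and Osmr, Lifr and Osm, Osm and Il6, and Il6 and Lif; the other pairs did not.

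**Figure D3:**
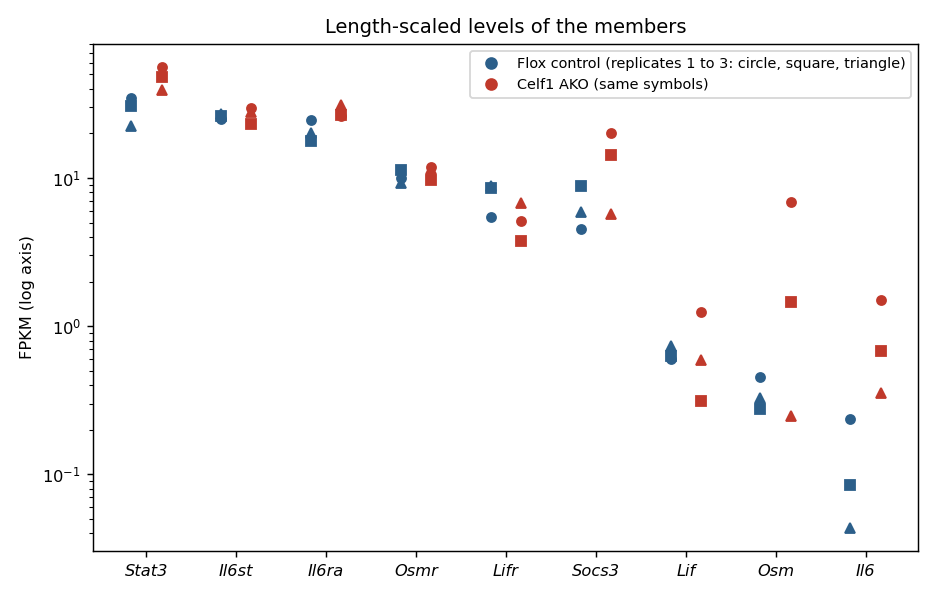
FPKM of the 9 genes on a log axis in 3 Flox control (blue) and 3 Celf1 AKO (red) libraries, ordered by the Flox control mean. Stat3 and the 4 receptor chains lie at 3.77 FPKM or more in every library, while the cytokines lie at 6.91 FPKM or less.

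Further genes of the pathway came from 4 lists: other ligands, other receptors, signal transduction, and brakes with receptor shedding. Of their 39 genes, 37 were tested and 0 passed over all genes by edgeR, DESeq2 or limma-voom. Among all genes tested, edgeR called 0.0122%, DESeq2 3.02% and limma-voom 0 genes. At an unadjusted edgeR p of 0.05, 1 was higher and 2 lower, against 12.9% of all genes, 6.75% higher. Of the 37, 2 were higher and 2 lower without overlap between the groups, against 7.81% and 9.51% of all genes. Positive and negative log2 fold changes were balanced, 19 against 18, with a median of 0.01 against -0.02 over all genes tested.

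None of the 5 other ligands passed by edgeR, and 0 had an unadjusted p under 0.05 (12.9% of all genes). Il27, a subunit of interleukin-27, was at 0.238 ± 0.110 against 0.132 ± 0.061 CPM (SD, n = 3 each). Clcf1, a ligand of the ciliary neurotrophic factor receptor, was at 5.14 ± 1.48 against 3.65 ± 1.95 CPM. The cardiotrophin gene Ctf1 was at 3.88 ± 1.35 against 3.36 ± 0.32 CPM. In each of these the groups overlapped.

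None of the 4 other receptors passed either, and 0 had an unadjusted edgeR p under 0.05 (12.9% of all genes). Il11ra1, the interleukin-11 chain, was as even as gp130, at 90.3, 83.2 and 82.6 CPM in the knockouts and 85.8, 81.8 and 82.3 CPM in the controls. Il31ra, an interleukin-31 chain, was at 0.965, 0.982 and 1.03 CPM in the knockouts and at 0.6003, 0.148 and 0.582 CPM in the controls, without overlap (log2 fold change 1.17, SE 0.50; edgeR adjusted p = 0.388). Cntfr was at 4.99 ± 0.95 against 4.39 ± 2.503 CPM and Il27ra at 1.20 ± 0.18 against 1.57 ± 0.68 CPM (SD, n = 3 each).

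Among 14 signal transduction genes, Stat5a had the smallest p. This STAT of growth hormone and prolactin signalling, the neighbour of Stat3, was at 20.5, 28.6 and 28.8 CPM in the knockouts and at 32.7, 54.4 and 48.1 CPM in the controls. All knockouts lay below all controls (log2 fold change -0.80, SE 0.22; edgeR adjusted p = 0.267), the opposite direction to Stat3. Sos1, which activates Ras, was likewise lower without overlap, at 27.5 ± 2.22 against 36.6 ± 4.17 CPM (edgeR adjusted p = 0.301). The adaptors Shc1 (135 ± 11.1 against 112 ± 15.5 CPM) and Gab1 (20.2 ± 2.10 against 15.9 ± 3.36 CPM) overlapped between the groups. Of the 14 brakes, 0 passed by edgeR and 1 was higher at an unadjusted p of 0.05 (6.75% of all genes). This was Ptpn2, a phosphatase of JAK and STAT proteins, at 39.2, 36.5 and 24.5 CPM against 26.8, 19.2 and 20.0 CPM (log2 fold change 0.60, SE 0.21, edgeR adjusted p = 0.323). The phosphatase Ptpn6 was at 2.82 ± 2.04 against 5.91 ± 2.95 CPM, Socs4 at 36.4 ± 2.74 against 42.4 ± 4.72 CPM and Cish at 2.34 ± 0.58 against 3.295 ± 1.498 CPM (SD, n = 3 each). Socs1, Socs2, Socs5, Socs6 and Socs7, named after their values were seen, had log2 fold changes between -0.03 and 0.30, beside 1.10 for Socs3; the difference between these genes was not tested.

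**Figure D4:**
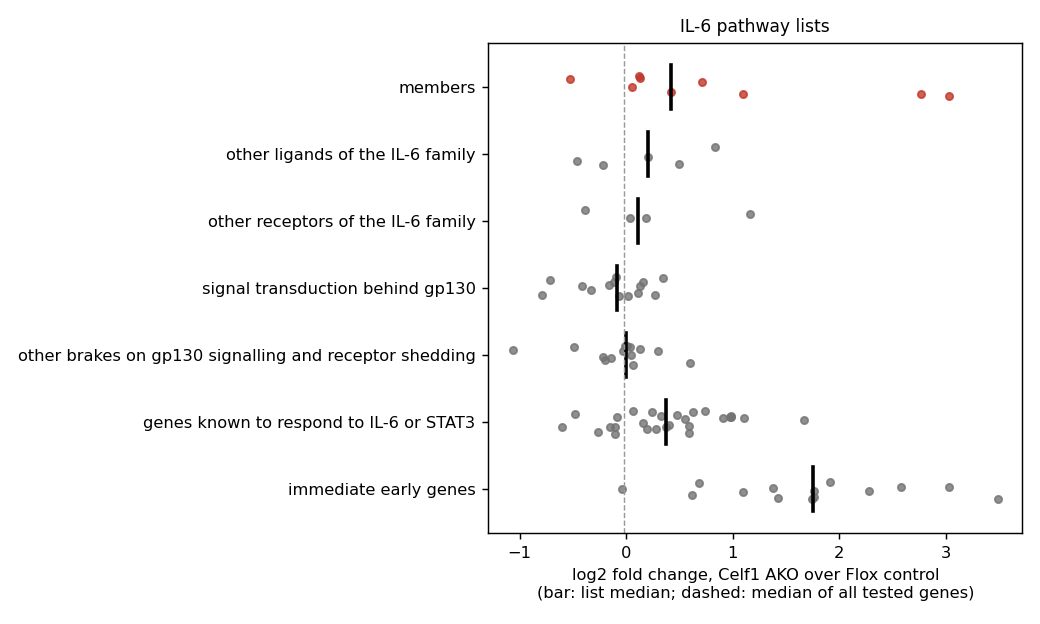
Log2 fold change of Celf1 AKO over Flox control (x axis) for each gene of the lists (rows; points spread vertically for legibility), with the list median as a bar and the median over all tested genes as a dashed line. The medians are 0.21 for other ligands, 0.11 for other receptors, -0.083 for signal transduction, -0.003 for brakes, 0.37 for the response genes and 1.75 for the immediate early genes.

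Genes known to respond to IL-6 or STAT3 in other tissues were read as a list of 30, of which 27 were tested and 0 passed by edgeR. Of these, 20 had a positive log2 fold change, with a median of 0.37 against -0.02 over all genes tested, and 6 were higher and 0 lower at an unadjusted p of 0.05, against 6.75% of all genes higher. Without overlap between the groups, 2 of the 27 were higher and 0 lower, against 7.81% and 9.51% of all genes. Myc, a transcription factor of growth, was at 81.2, 85.0 and 25.5 CPM in the knockouts and at 27.2, 19.4 and 13.7 CPM in the controls (log2 fold change 1.67, SE 0.45; edgeR adjusted p = 0.267). Vegfa, an angiogenic growth factor, was at 851, 923 and 493 CPM against 502, 312 and 340 CPM (0.97, SE 0.28; edgeR adjusted p = 0.286). In both, replicates 1 and 2 of the knockout lay above all controls and replicate 3 did not, as for Socs3. With Celf1 AKO replicate 3 left out, both passed (edgeR adjusted p = 0.0275 for Myc and 0.0385 for Vegfa), as they did by DESeq2 (adjusted p = 0.00859 and 0.0321). Those settings called 3.19% and 3.02% of all genes. Bcl2l1, which protects against cell death, was at 113 ± 12.8 against 77.1 ± 17.96 CPM without overlap, and Cd14, a coreceptor for bacterial lipopolysaccharide, at 180 ± 85.8 against 83.9 ± 43.9 CPM (SD, n = 3 each; edgeR adjusted p = 0.317 and 0.353). Many of these genes respond to other signals too, so the list does not measure IL-6 signalling alone.

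Immediate early genes, which respond to many stimuli within minutes and include genes of AP-1, were highest in the same libraries as Osm and Socs3. The 14 genes summed to 3442, 2969 and 650 CPM in knockout replicates 1, 2 and 3, and to 845, 447 and 391 CPM in the controls. Replicates 1 and 2 of the knockout were far above the rest, and replicate 3 lay below Flox control replicate 1. Of the 14, 13 had a positive log2 fold change (median 1.75), 0 passed by edgeR and 10 were higher at an unadjusted p of 0.05 (6.75% of all genes). DESeq2 called 6, against 3.02% of all genes called, 2.08% higher. Without Celf1 AKO replicate 3 edgeR called 10, against 3.19% of all genes called, 1.43% higher. Atf3 had a log2 fold change of 1.43 (SE 0.33), Jun of 1.92 (SE 0.48), Ier2 of 1.76 (SE 0.47) and Egr2 of 1.76 (SE 0.50), with edgeR adjusted p-values of 0.246 to 0.285. The part of this response, or of the handling of the tissue, in the values of Il6, Osm, Socs3 and Stat3 was not tested.

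Markers of the other cell types were read for the same reason. The 8 endothelial markers, among them Pecam1, Cdh5 and Kdr, summed to 1010 to 1163 CPM in the knockouts and 575 to 831 CPM in the controls, with 7 of 8 positive (median log2 fold change 0.60); 0 passed by edgeR, with 6 higher at an unadjusted p of 0.05 (6.75% of all genes) and 3 called by DESeq2 (3.02% of all genes). Without Celf1 AKO replicate 3, 1 of the 8 passed by edgeR (3.19% of all genes) and the median was 0.58. The 8 preadipocyte and fibroblast markers, such as Pdgfra and Dpp4, summed to 2459 to 3967 against 2987 to 3637 CPM, and the 8 adipocyte markers to 32152 to 40521 against 35942 to 39791 CPM. Of these lists, 1 of 8 and 3 of 8 were positive, with medians of -0.11 and -0.09. At an unadjusted edgeR p of 0.05, 0 and 1 passed (12.9% of all genes). The 1 was Lep, named after its values were seen, with a log2 fold change of -1.71 (edgeR adjusted p = 0.324) and overlapping groups. Of 5 epithelial markers, 3 were in the count table, summing to 6.79 CPM in Celf1 AKO replicate 1 and 0.398 to 2.19 CPM in the other libraries. Of 6 T and B cell markers, 3 were in it, summing to 4.66 CPM in that library and 2.04 to 3.36 CPM in the others. Endothelial cells also carry receptors of this family. The part of any of these cell types in the values of Il6ra, Stat3, Il6 and Osm was not tested.

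**Figure D5:**
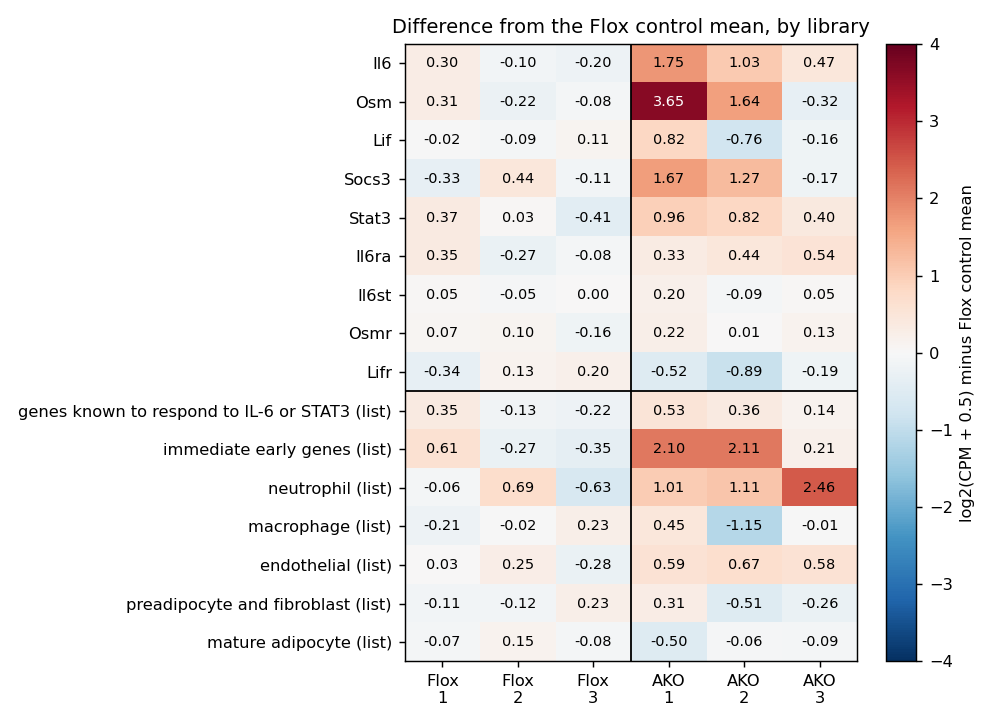
Difference from the Flox control mean in log2(CPM + 0.5) for each gene (above the line) and for the mean over each list's tested genes (below it), by library. Celf1 AKO replicates 1 and 2 carry the high values of Osm (3.65 and 1.64), Socs3 (1.67 and 1.27) and the immediate early genes (2.10 and 2.11), while the neutrophil list is highest in Celf1 AKO replicate 3 (2.46).

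The genes most like Il6 and Socs3 across the 6 libraries were found by the Pearson correlation of log2(CPM + 0.5), over genes with a mean of at least 1 CPM. For Il6 they were Fbxo34 (r = 0.999), Rfc4 (0.998), Chd2 (0.994), Gfra3 (0.992) and the unnamed gene model Gm16015 (0.991). Their own differences were smaller than that of Il6: Fbxo34 was at 35.2, 28.9 and 24.8 CPM in the knockouts and 23.7, 21.1 and 21.0 CPM in the controls. For Socs3 they were Dcaf4 (r = 0.995), Arap2 (0.993), Pde8b (0.992), the basement membrane gene Nid2 (0.991) and the thyroid hormone receptor gene Thra (0.989). Nid2 was at 37.1, 34.1 and 14.4 CPM in the knockouts and at 12.7, 17.96 and 14.4 CPM in the controls. Many genes came close to these values: 111 of 13082 genes reached r = 0.95 with Il6, and 102 of 13081 with Socs3.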

How the data were processed

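RNA from inguinal fat of 6 libraries, 3 per genotype label, was analysed from the authors' tables. The authors deposited raw counts by Ensembl gene as whole numbers, and FPKM values of the same genes. HISAT2, RSEM 1.3.1, GRCm38 and mm10 are listed in the submitters' processing notes without their roles; no annotation or strand setting is given in the sources used here. GENCODE M21 (GRCm38) named 16522 identifiers and left 105 unmatched.

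Counts were tested with the quasi-likelihood test of edgeR 4.0.16 (R 4.3.3): TMM, default expression filter (261 genes removed), robust spread, genotype as the only term, all 6 libraries, Benjamini-Hochberg adjustment over 16366 genes, threshold 0.05. SE is the log2 fold change over the root of F. Single values had exact two-sided permutation tests. The labels do not say that each library is a different mouse, so p-values measure the spread between libraries. The fits were tested on simulated data with known changes, placed in genes with a mean of at least 1 CPM. There edgeR recovered 6% of 1.5-fold, 48% of 2-fold and 88% of 4-fold changes. DESeq2 recovered 14%, 68% and 98%, but called 41 of the unchanged genes against 9 by edgeR. In the libraries themselves edgeR passed 2 of 16366 genes. Osm, with a log2 fold change of 3.03 (SE 1.03), was not among them (edgeR adjusted p = 0.317). Not passing is thus weak evidence of no change, at 4-fold and above too. Whether the recovered shares hold for the libraries themselves was not tested, and Il6, with a mean under 1 CPM, was not covered.

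Alternatives were RLE, upper-quartile and library-size scaling, 2 other filters, DESeq2 1.42.0, limma-voom (limma 3.58.1), limma on log2(FPKM + 0.1) or log2(FPKM + 1) at a minimum of 1 FPKM in 3 libraries, log2(FPKM + 1) unfiltered, the replicate number as a block, and each library left out. The genes named are the 10 members, Celf1, the 4 genes of smallest p in each pathway list, the first markers of each cell type and the 5 genes most like Il6 and Socs3; others are said to be chosen after their values were seen. Members and lists were chosen with earlier results of these data known. A planned comparison of protein sequences was not made here, and 1 gene that this rule names is not reported here.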

Additional observations from a re-analysis of the deposited data

How the results depend on the processing

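Results for the 9 genes kept their side of the threshold and their direction in 140 of 146 comparisons with an alternative, in 3 they passed and in 3 they reversed. The count of the 9 genes called was 0 with all 6 libraries, 1 by DESeq2 (Il6) and 0 to 2 with 1 library left out, the 2 being Osm and Socs3 without Celf1 AKO replicate 3. The count of IL-6 and STAT3 response genes called was 0, 2 by DESeq2 and 0 to 2 with 1 library left out; that of immediate early genes was 0, 6 by DESeq2 and 0 to 10, the highest counts again without Celf1 AKO replicate 3. The causes were not tested. The log2 fold change of Lif turned to -0.092 with limma-voom and -0.072 with the replicate block, and ran from -0.49 to 0.47 with 1 library left out, the lowest without Celf1 AKO replicate 1. With 1 library left out, Cntfr ran from -0.053 (Flox control replicate 1 left out; -0.023 with replicate 3 out) to 0.76, and Il27ra from -0.62 to 0.014 (Flox control replicate 3 left out). With log2(FPKM + 1), whose pseudocount is large for low genes, the log2 fold changes of Il6 and Osm were 0.67 and 1.10. In the filtered FPKM fits Il6, Osm and Lif, and at a mean of 1 CPM Il6, were not tested.

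The replicate numbers share no stated litter or day, and same-numbered libraries deviated together at r = 0.07, -0.01 and 0.27, which does not pair them; not every library correlated best with its own number. With the replicate block, edgeR called 0 of the 9 genes and 12 of all genes in place of 2. Depth limits Il6, at 3 to 89 counts per library.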

Other observations

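Acute-phase genes, chosen here after their values were seen, are classical targets of IL-6 in liver and were read in this fat depot. Haptoglobin (Hp) was abundant in every library, at 1996, 2848 and 4284 CPM in knockout replicates 1, 2 and 3, and at 3420, 3225 and 3192 CPM in the controls. Its knockout values spread around the controls. The library with the most Il6, Celf1 AKO replicate 1, had the least Hp and also the lowest sum of adipocyte markers (32152 CPM). A link of Hp to Il6 or to adipocyte content was not tested. Lrg1, a leucine-rich glycoprotein, was at 271 ± 58.6 against 288 ± 56.0 CPM, and the protease inhibitor gene Serpina3n at 981 ± 146 against 878 ± 213 CPM (SD, n = 3 each). The serum amyloid genes Saa1 and Saa2, near-identical and so uncertain one by one, and Saa3 were at 1.78 CPM or less in every library. Lipocalin (Lcn2) was at 9.08, 13.8 and 13.6 CPM against 10.1, 5.64 and 3.73 CPM, with overlap by Flox control replicate 1. None of these passed by edgeR (adjusted p of 0.360 to 0.893). The metallothionein genes Mt1 and Mt2, which bind zinc, were at 1384, 1557 and 1009 CPM against 1459, 700.0 and 465 CPM for Mt1, and at 967, 1076 and 489 CPM against 797, 312 and 172 CPM for Mt2. Flox control replicate 1 lay above Celf1 AKO replicates 1 and 3 for Mt1 and above replicate 3 for Mt2. The groups thus overlapped for both genes (edgeR adjusted p = 0.561 for Mt1 and 0.487 for Mt2).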
